A study of Mus musculus with 11 samples.

Results

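Described here are 10 genes that build, decorate and release mucus: the secreted mucins Muc5ac and Muc5b, the mucus protein Fcgbp, the membrane mucins Muc1, Muc4, Muc16 and Muc20, the mucin glycosyltransferase Gcnt3, the folding enzyme Agr2 and the transcription factor Spdef. They were chosen by gene symbol, with the measured difference between knockout and Control libraries already known, so their values in that comparison are a description and no test is given for them. Of these 10 genes 9 had a row among the 24421 rows of the table, and Muc16 is not analysed here.

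Messenger RNA was sequenced in bulk from lung epithelial cells of fetal mice at E17.5, late in gestation, held on magnetic beads by EpCAM, a surface protein of epithelia. The 5 PRDM3/16KO libraries came from fetuses in which floxed Prdm3 (listed as Mecom) and floxed Prdm16, genes of 2 related zinc finger regulators of transcription, were deleted by ShhCre, a Cre placed at the Sonic hedgehog gene that acts across the lung epithelium. The other 6 libraries carry only the label Control: the series text speaks of wild type, whereas the cross described (Prdm3 fl/fl Prdm16 fl/wt ShhCre+ males with Prdm3 fl/fl Prdm16 fl/fl females) gives floxed alleles to every pup, and whether Controls carried ShhCre is not given in the sources used here. The labels do not say that libraries are separate animals, so what the p-values measure is only how the 11 libraries spread, which may be technical.

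Libraries held 6065906 to 7869787 counts. Epcam ran from 226 to 289 CPM (counts per 1000000, on scaled library sizes) in the Control libraries and from 248 to 273 CPM in the knockout libraries. Both targeted genes still had reads: Prdm16 averaged 202 ± 21.9 CPM (SD, n = 6) in Control and 166 ± 12.2 CPM (SD, n = 5) in the knockout, and Mecom 219 ± 9.99 and 340 ± 16.0 CPM. Gene-level counts do not separate the deleted exons from the rest, so these levels do not check the deletion. Of 13916 genes tested, 42.9% passed edgeR's quasi-likelihood test at an adjusted p of 0.05, 21.1% higher and 21.8% lower in the knockout, and for 28.5% the ranges of the groups did not overlap. The median log2 fold change (knockout over Control) of all genes was 0.0023. With library totals in place of the scaled sizes that median was 0.11, and 65.6% of the calls were higher instead of 49.2%.

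Mucus is a gel of secreted mucins, very long proteins with repeated stretches rich in serine and threonine that carry dense O-linked sugars. In the mouse airway Muc5b is the mucin made at rest and Muc5ac rises in goblet cells during allergic inflammation, while membrane mucins stay on the cell surface. Mucins are folded and cross-linked in the endoplasmic reticulum, glycosylated in the Golgi and packed into granules, and Spdef, a factor of the ETS family, drives goblet cell differentiation in airway and gut.

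Among the 9 measured members, 4 were higher in every knockout library than in any Control library (Fcgbp, Muc5ac, Gcnt3 and Spdef), 1 was lower in every knockout library (Muc1), and the groups overlapped for the other 4 (Muc5b, Muc4, Muc20 and Agr2). The members were chosen on this contrast, so nothing is read from these counts against the 28.5% of all genes whose groups did not overlap. All 9 passed the filter on low counts, which asked for 1.36 CPM in at least 5 libraries. Gcnt3 reached that level in 0 Control and 5 knockout libraries, so it passed through the knockout libraries alone. Agr2 reached it in 2 Control and 4 knockout libraries, so its pass needed libraries of both groups. In bulk RNA, more or fewer cells of a type cannot be told apart from more or less RNA per cell.

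**Figure D1:**
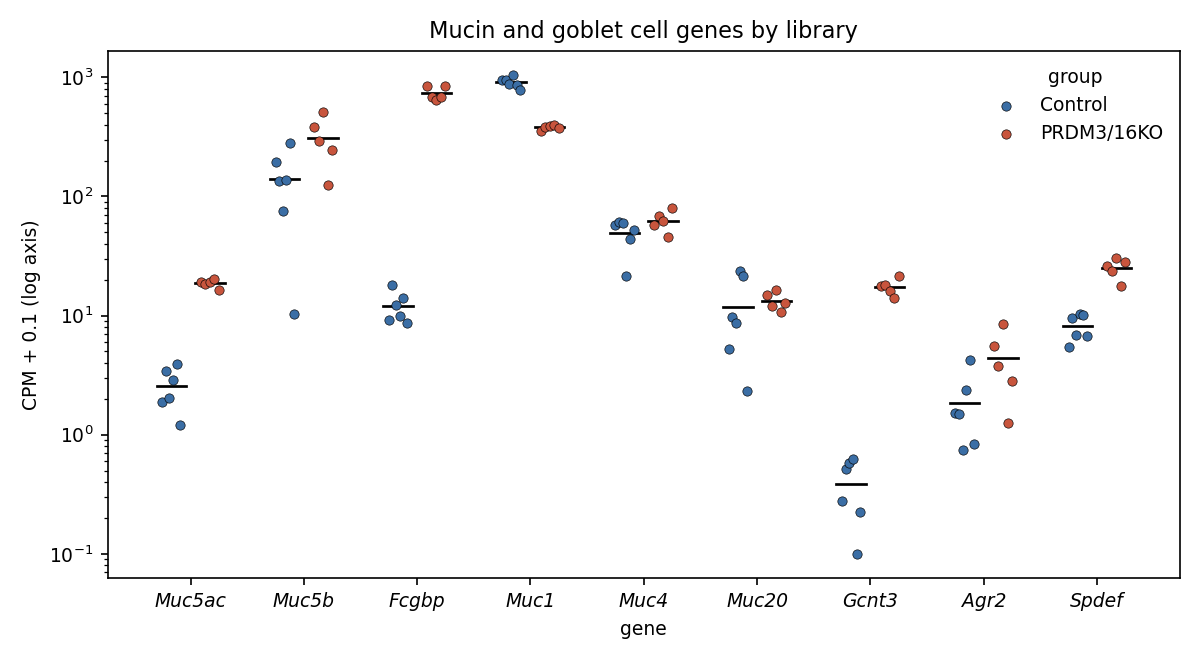
CPM plus 0.1 on a log axis for the 9 measured genes, 1 point per library, with a bar at the group mean (6 Control and 5 PRDM3/16KO libraries). Fcgbp, Gcnt3, Muc5ac and Spdef lie higher in every knockout library than in any Control library, Muc1 lies lower, and the other 4 genes overlap.

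The start regions of 3 members are shown because they contrast a gene that was lower in the knockout (Muc1), the regulator that was higher (Spdef) and an abundant secreted product that was far higher (Fcgbp). The sequences are 300 bases around the annotated start site, from RefSeq on GRCm38.p6, 5′ to 3′ on the strand of the gene, with motif matches in capitals. They lie at chr3:89228806-89229105 (+) for Muc1, chr17:27728902-27729201 (-) for Spdef and chr7:28070986-28071285 (+) for Fcgbp.
Muc1: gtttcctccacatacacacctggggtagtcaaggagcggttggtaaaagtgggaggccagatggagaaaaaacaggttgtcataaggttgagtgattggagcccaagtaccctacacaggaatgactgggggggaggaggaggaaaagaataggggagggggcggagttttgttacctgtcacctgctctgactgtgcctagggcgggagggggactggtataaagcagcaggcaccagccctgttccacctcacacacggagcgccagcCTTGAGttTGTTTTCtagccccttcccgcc
Spdef: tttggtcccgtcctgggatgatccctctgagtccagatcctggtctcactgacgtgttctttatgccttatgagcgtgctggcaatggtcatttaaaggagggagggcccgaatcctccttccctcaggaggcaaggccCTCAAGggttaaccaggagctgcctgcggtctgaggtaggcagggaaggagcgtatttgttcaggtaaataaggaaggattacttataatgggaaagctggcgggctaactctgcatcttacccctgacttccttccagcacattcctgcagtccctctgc
Fcgbp: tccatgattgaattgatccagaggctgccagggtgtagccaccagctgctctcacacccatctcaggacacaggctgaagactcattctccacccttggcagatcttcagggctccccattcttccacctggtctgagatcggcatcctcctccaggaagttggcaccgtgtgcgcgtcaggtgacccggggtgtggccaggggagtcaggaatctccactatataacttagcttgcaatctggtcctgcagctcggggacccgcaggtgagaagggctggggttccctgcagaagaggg
Capitals mark the letters CTCAAG (of the NKX2-1 type) and TGTTTNC (of the FOXA type) on either strand, and the letters CCGGAT (SPDEF type) and AGATAA (MECOM type) were searched as well. NKX2-1 is the transcription factor that specifies lung epithelium, and FOXA factors open chromatin in endoderm. In Muc1 the NKX2-1 letters stood on the opposite strand, first base 21 bases after the start site, and the FOXA letters on the strand of the gene at 29 bases. In Spdef the NKX2-1 letters stood on the strand of the gene at position -111 from the start site, and Fcgbp held none of the 4 motifs in this window. A match is a description of letters and not a binding site: of 32851 promoters of the same length, 20.5% held the FOXA letters, 15.9% the NKX2-1 letters, 11.2% the MECOM letters and 6.04% the SPDEF letters. Of the 10 members 7 had a promoter entry. Muc4 held the MECOM letters at 8 and 32 bases after the start, Agr2 the FOXA letters at -87 and Muc20 the FOXA letters at -248, all on the opposite strand, and Muc16 none.

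Fcgbp, whose product binds to mucins and is secreted with them by goblet cells, lies at chr7:28071236-28120862 on the plus strand (mm10, as for all coordinates that follow, GENCODE M21). It went from 8.52 CPM at the lowest, 11.02 at the median and 18.0 at the highest Control library to 839, 691, 645, 682 and 847 CPM in knockout libraries 1 to 5. Every knockout library was more than an order of magnitude above every Control library, and the knockout libraries differed little among themselves. The mean was 11.9 ± 3.61 CPM (SD, n = 6) in Control and 741 ± 95.1 CPM (SD, n = 5) in the knockout, a log2 fold change of 5.95 (SE 0.17). Summed raw counts were 485 and 28788, a depth-scaled ratio of 61.5 (95% interval 56.2 to 67.4, counting error only). Of the distinct 50-base words in its transcripts, 6.42% also occur in other genes, nearly all in 9530053A07Rik, the next gene 8604 bases away. That neighbour was at 3.88 ± 2.42 CPM in Control and 3.92 ± 1.08 CPM in the knockout (log2 fold change 0.04, SE 0.35).

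Muc5ac and Muc5b are adjacent gel-forming mucin genes on the plus strand of chromosome 7, Muc5ac at chr7:141788972-141819231 and Muc5b at chr7:141839070-141873084. Muc5ac had 1.11, 2.35 and 3.86 CPM at the lowest, median and highest Control library and 19.0, 18.3, 19.1, 20.2 and 16.2 CPM in the knockout libraries. The knockout libraries were all above the Controls and close to each other, with a log2 fold change of 2.90 (SE 0.21). Muc5b spread widely in both groups, with 194, 135, 76.1, 138, 281 and 10.1 CPM in Control libraries 1 to 6 and 385, 290, 512, 125 and 247 CPM in knockout libraries 1 to 5. The groups overlapped: Control 5 was above knockouts 4 and 5, Controls 1, 2 and 4 were above knockout 4, and Control 6 was far below every other library. Its mean was 139 ± 93.5 CPM (SD, n = 6) and 312 ± 146 CPM (SD, n = 5), a log2 fold change of 1.17 with an SE of 0.63. Of transcript positions in Muc5ac and Muc5b, 23.2% and 21.9% fall in 50-base words that recur within the same transcript, where short reads fit more than 1 place in the gene.

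Muc1, the membrane mucin of glandular and alveolar epithelium, was the only member whose knockout libraries all lay below the Controls. It is a short gene at chr3:89229057-89233381 (+). Its level was 782, 916 and 1052 CPM at the lowest, median and highest Control library and 357, 384, 393, 398 and 378 CPM in the knockout libraries. The groups did not overlap, and the knockout libraries lay close together at 382 ± 16.1 CPM (SD, n = 5) against 911 ± 92.3 CPM (SD, n = 6) in Control. The log2 fold change was -1.25 (SE 0.08). Alveolar type 2 markers moved with it, and 12 of 12 fell by edgeR's test, beside 21.8% over all genes. Their summed level was 10470 to 19622 CPM in Control and 3170 to 4635 CPM in the knockout. The part of that shift in the Muc1 difference was not tested.

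Muc4, a membrane mucin that binds ErbB2, and Muc20, a smaller membrane mucin, lie tail to tail on chromosome 16, Muc4 at chr16:32735886-32782391 (+) and Muc20 at chr16:32777419-32797435 (-). Muc4 had 58.1, 60.4, 59.6, 21.5, 44.1 and 51.7 CPM in Control libraries 1 to 6 and 57.7, 68.2, 62.4, 45.5 and 79.8 CPM in the knockout libraries. Control 4 was lowest and knockout 5 highest, the groups overlapped, and the log2 fold change was 0.35 (SE 0.22). Muc20 had 5.15, 9.68, 8.63, 23.4, 21.3 and 2.22 CPM in Control and 14.9, 12.0, 16.4, 10.7 and 12.6 CPM in the knockout. The knockout values sat inside the Control range, with a log2 fold change of 0.19 (SE 0.44). The ends of these genes overlap by 4973 bases on opposite strands, of which 627 are exonic in both, 5.33% of the Muc4 exons and 15.6% of the Muc20 exons. The strand setting of the counting is not given in the sources used here, so reads in that stretch cannot be told apart.

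Gcnt3, which adds the branches of core 2 and core 4 O-glycans on mucins, lies at chr9:70031496-70038088 (-). Control libraries 1 to 6 held 1, 3, 3, 3, 0 and 1 raw counts, and knockout libraries 1 to 5 held 133, 138, 125, 109 and 172. In CPM the Control libraries did not pass 0.52 while the knockout libraries ran from 14.0 to 21.2. The summed counts of 11 and 677 gave a depth-scaled ratio of 63.8, whose interval of 35.4 to 128 is wide because of the few Control counts. The fitted log2 fold change of 5.90 (SE 0.28) depends on those few counts too.

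Spdef, at chr17:27714352-27728955 (-), had 5.33, 8.06 and 10.2 CPM at the lowest, median and highest Control library. The knockout libraries had 26.0, 23.8, 30.5, 17.497 and 27.9 CPM. All knockout libraries were above all Controls, knockout 4 being the closest, and the log2 fold change was 1.63 (SE 0.17). Agr2, a disulfide isomerase of the endoplasmic reticulum that mucin folding needs in the mouse gut and lung, lies at chr12:35992907-36004087 (+). It was scarce, with 1.42, 1.38, 0.640, 2.25, 4.13 and 0.741 CPM in Control and 5.44, 3.68, 8.45, 1.16 and 2.71 CPM in the knockout. The groups overlapped, from 71 Control and 166 knockout counts in all, and the log2 fold change was 1.27 (SE 0.51). Leaving out 1 library moved it from 0.87 (without knockout 3) to 1.76 (without Control 5).

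Muc5b, Agr2, Muc20 and Spdef were each highest in knockout 3 and lowest in knockout 4 among the knockout libraries, and Muc5b, Agr2 and Muc20 were low in Control 6. Other features moved across these libraries as well. Among the knockouts, knockout 3 had the highest club (1063 CPM), ciliated (1901 CPM), basal (558 CPM), alveolar type 2 (4635 CPM), mesenchymal (774 CPM) and immune (777 CPM) marker sums. It was not highest for gastric, mesothelial, neuroendocrine, endothelial or proliferation markers. Knockout 4 had the lowest basal (324 CPM) and mesenchymal (426 CPM) sums of the knockouts. Control 6 had the lowest summed alveolar type 2 markers of the Controls (10470 CPM), the lowest club cell sum (957 CPM) and the highest proliferation sum (859 CPM, against 181 to 605 CPM in the other Controls). Knockout 4 was the only knockout library with high Y-linked transcripts, at a summed 212 CPM against at most 5.18 CPM in the other 4, whereas Controls 1, 3, 4 and 5 had 203 to 231 CPM. With low-Y libraries alone, where Controls 2 and 6 are the only Controls, the log2 fold change of Muc5b was 2.31 and that of Agr2 2.25. With high-Y libraries alone, where knockout 4 is the single knockout library, they were -0.48 and -0.90. The labels give no sex, and Y-linked level and the single library cannot be told apart there. Fcgbp held 5.84 and 5.89, Gcnt3 6.04 and 5.53, Muc5ac 3.05 and 2.92, and Muc1 -1.20 and -1.24 in the low-Y and high-Y libraries. Spdef had 1.75 and 1.09.

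**Figure D2:**
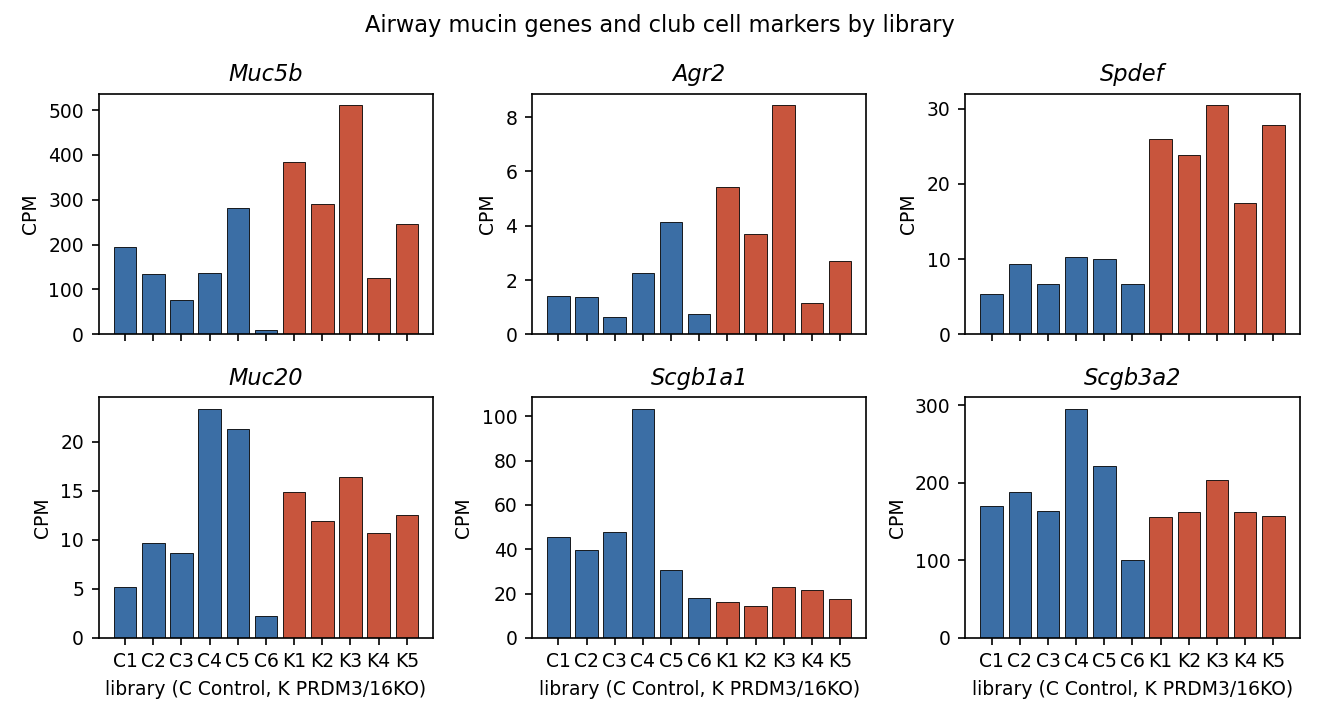
CPM in each library (C1 to C6 Control, K1 to K5 PRDM3/16KO) for Muc5b, Agr2, Spdef and Muc20 and for the club cell markers Scgb1a1 and Scgb3a2, each on its own axis from 0. Muc5b, Agr2 and Spdef peak in knockout 3 (512, 8.45 and 30.5 CPM), and Scgb1a1 peaks in Control 4 (103 CPM). Among the knockout libraries alone, Scgb1a1 (23.1 CPM) and Scgb3a2 (204 CPM) are highest in knockout 3 too.

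Levels of different genes were compared per kilobase of exon. In Control the order of the mean CPM per kilobase was Muc1 (388), Muc5b (9.28), Muc4 (4.19), Spdef (3.50), Muc20 (2.92), Agr2 (1.36), Fcgbp (1.14), Muc5ac (0.229) and Gcnt3 (0.066). Only Muc1 from Muc5b, and Fcgbp from Muc5ac, stood apart from the next gene with no overlap over the libraries. In the knockout the order was Muc1 (163), Fcgbp (70.6), Muc5b (20.8), Spdef (10.9), Muc4 (5.33), Gcnt3 (4.05), Agr2 (3.32), Muc20 (3.30) and Muc5ac (1.72). There Muc1, Fcgbp, Spdef and Muc20 each stood apart from the gene that followed, and the other neighbours overlapped. Fcgbp moved from the 7th place to the 2nd. Muc5b stayed above Muc5ac in all 11 libraries, by 6.55 to 78.6 times per kilobase in Control and 4.45 to 19.3 times in the knockout, ranges that overlap.

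**Figure D3:**
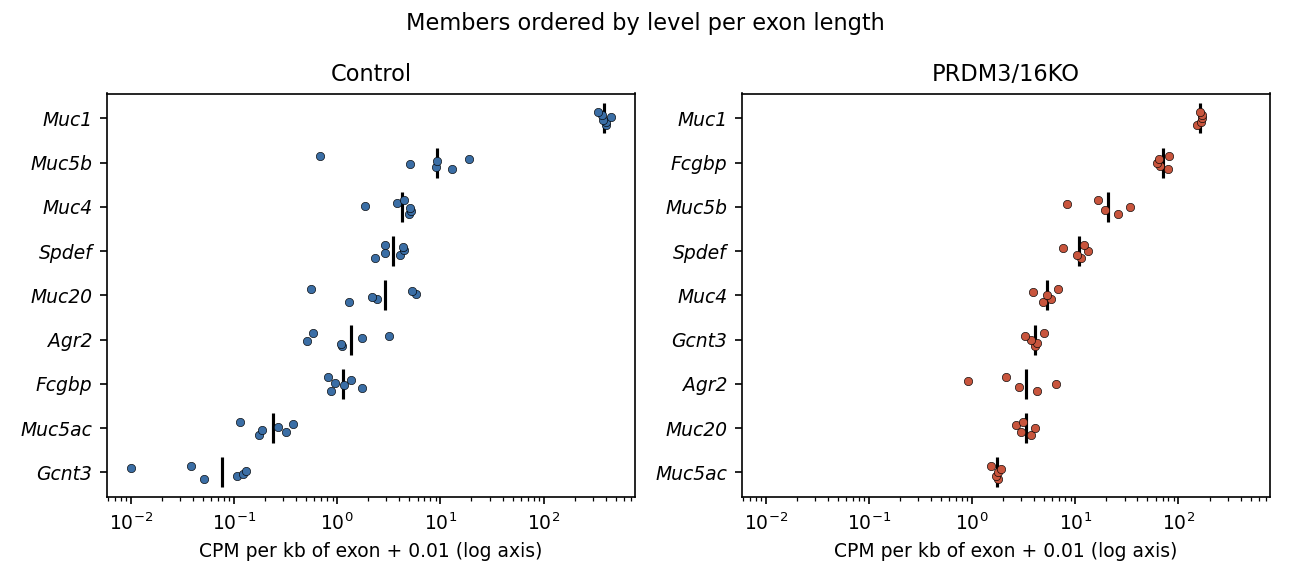
CPM per kilobase of exon plus 0.01 on a log axis, genes ordered by their mean in each group, 1 point per library, with Control and PRDM3/16KO in separate panels. Muc1 leads in both (388 and 163), and Fcgbp goes from 1.14 to 70.6.

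Other mucin genes were mostly scarce. Of 15 listed, 12 had a row and 4 could be tested, of which 50% passed, beside 42.9% over all genes. Parm1, a mucin-like membrane protein, rose from 3.38 ± 1.83 to 25.2 ± 1.24 CPM (log2 fold change 2.87, SE 0.22, edgeR adjusted p = 6.84e-08). Dpcr1, the older symbol of the mucin-like gene Mucl3, fell from 17.47 ± 2.72 to 6.52 ± 0.84 CPM (-1.42, SE 0.13, edgeR adjusted p = 5.08e-07). Cd164, a small sialomucin, and Ovgp1, the oviduct mucin, did not pass (0.04 and 0.14), and the list's median was 0.09 beside 0.0023 for all genes. Too low to test were Muc2, the intestinal gel-forming mucin, with 19 counts over all Controls and 70 over all knockouts, and Muc6, the gastric gland mucin, with 13 and 8. The membrane mucin Muc13 had 0 and 17 counts and Gm9573 (Muc21) 0 and 28. Without the filter 5 of the list passed, 4 of them higher.

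Of the enzymes that start O-glycans by putting N-acetylgalactosamine on serine or threonine, 19 were listed and 13 tested: 7 rose, 2 fell and 4 did not pass (median 0.39). The share called was 69.2%, beside 42.9% over all genes, in a list that like the others was chosen with earlier results known. Galnt10 rose from 11.9 ± 1.23 to 42.3 ± 3.54 CPM, with an edgeR adjusted p of 4.34e-10 (log2 fold change 1.83, SE 0.09). Galnt5 (1.51), Galnt7 (0.93) and Galnt6 (2.01) rose as well, with edgeR adjusted p from 5.36e-06 to 0.00019. Galnt2 fell by 0.69 on the log2 scale (313 ± 37.2 to 194 ± 6.93 CPM, edgeR adjusted p = 4.78e-06) and Galnt3 by 0.31 (edgeR adjusted p = 0.0081). Galnt18 rose from 187 ± 31.9 to 277 ± 21.9 CPM (0.56, edgeR adjusted p = 0.00042). Galnt1 (0.0031, SE 0.07) and Galnt11 (0.08, SE 0.09) did not pass. The call of Galnt3 ended with library totals as scaling (-0.21).

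Of 30 genes that lengthen and cap O-glycans 25 were tested, and 9 rose, 9 fell and 7 did not pass (median 0.18). This was a share called of 72%, beside 42.9% over all genes. With library totals as scaling 12 rose and 8 fell. The fucosyltransferases Fut1 and Fut2, which make the H antigen found on mucins, rose from 1.02 ± 0.33 to 10.3 ± 0.92 CPM and from 3.28 ± 1.36 to 29.8 ± 5.19 CPM, with log2 fold changes of 3.29 and 3.18 (edgeR adjusted p = 1.92e-09 and 2.07e-08). Only Control 5 (1.515 CPM) reached 1.36 CPM among the Controls for Fut1, so that gene met the filter only through the knockout libraries. The sialyltransferase St3gal4 rose from 17.3 ± 3.81 to 136 ± 7.25 CPM (2.98, SE 0.11, edgeR adjusted p = 4.90e-11). Chst4, a sulfotransferase, rose from 1.58 ± 0.86 to 9.13 ± 1.1 CPM (2.55, edgeR adjusted p = 1.38e-06), and Gcnt1, which makes the core 2 branch, from 2.24 ± 0.70 to 8.08 ± 3.44 CPM (1.86, edgeR adjusted p = 0.00032). The St6galnac family of sialyltransferases split: St6galnac3 rose from 5.05 ± 1.76 to 12.1 ± 1.29 CPM (1.24, edgeR adjusted p = 7.64e-05), and 3 others fell. St6galnac2 fell from 184 ± 18.9 to 44.7 ± 1.71 CPM (-2.04, edgeR adjusted p = 4.34e-11), St6galnac4 from 63.8 ± 5.30 to 21.6 ± 2.86 CPM (-1.56) and St6galnac6 from 45.9 ± 4.76 to 24.7 ± 0.82 CPM (-0.89). B3gnt2, which extends lactosamine chains, fell by 0.55 on the log2 scale. The core 1 enzyme C1galt1 and its chaperone C1galt1c1 fell by 0.44 and 0.41 (edgeR adjusted p = 0.0029 and 0.016). Fut4 (0.22) and the GDP-fucose carrier Slc35c1 (-0.15) did not pass.

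**Figure D4:**
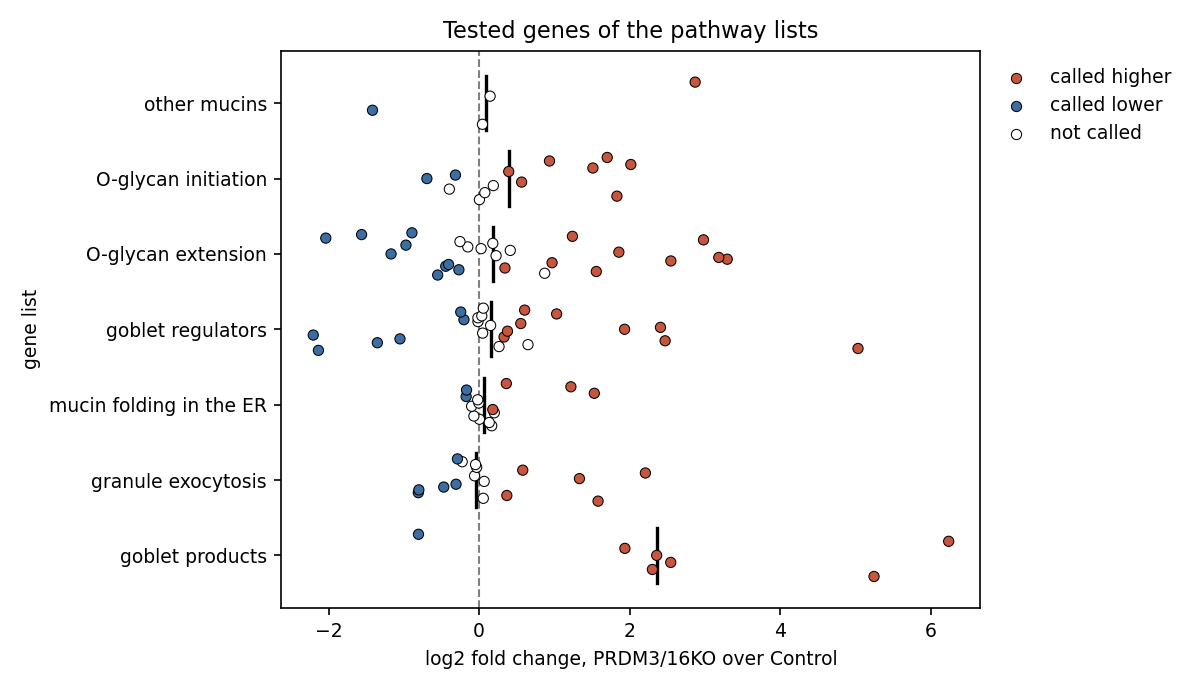
Log2 fold change, knockout over Control, of each tested gene in 7 pathway lists, coloured by whether edgeR's adjusted p was under 0.05, with a black bar at the median of each list. The O-glycan extension list has 9 genes on each side, and the goblet product list has 6 higher and 1 lower.

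Among 25 genes that regulate goblet cells 23 were tested, and 9 rose, 6 fell and 8 did not pass (median 0.15). This was a share called of 65.2%, beside 42.9% over all genes. With library totals as scaling 13 rose and 4 fell. Atoh1, which commits intestinal cells to secretory fates, rose from 12 counts over all Controls to 402 over all knockouts, or 0.313 ± 0.17 to 10.3 ± 1.72 CPM (log2 fold change 5.03, SE 0.26, edgeR adjusted p = 6.57e-10). Its highest Control library had 0.520 CPM, so Atoh1 met the 1.36 CPM filter only through the knockout libraries. Ehf, an epithelial ETS factor like Spdef, rose from 64.2 ± 17.3 to 357 ± 53.0 CPM (2.47, edgeR adjusted p = 9.21e-08). Sox2, the factor of conducting airway epithelium, rose from 73.8 ± 13.8 to 151 ± 12.2 CPM (1.03, edgeR adjusted p = 2.00e-06). Tgfa, a ligand of the EGF receptor, rose by a log2 fold change of 0.60. Foxa3 (1.93), known to act in goblet cells, and Gfi1 (2.41), which acts after Atoh1 in the gut, rose from under 2 CPM (edgeR adjusted p = 2.28e-06 and 3.88e-06). The receptor Egfr fell from 49.4 ± 10.3 to 19.3 ± 3.64 CPM (-1.35), and its ligands Areg and Ereg fell from 108 ± 25.8 to 24.5 ± 2.01 CPM (-2.14) and from 58.6 ± 19.7 to 12.6 ± 2.59 CPM (-2.20), with edgeR adjusted p from 7.60e-08 to 1.09e-05. Elf3, another epithelial ETS factor, fell by 1.05 on the log2 scale. Foxa1 (0.05) and the Notch target Hes1 (0.15) did not pass.

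Neuroendocrine markers moved with several of these genes: 7 of 7 tested rose, beside 21.1% over all genes. Their summed level was 38.7 to 74.0 CPM in Control and 641 to 781 CPM in the knockout. In the granule release list 16 of 17 genes were tested, and 5 rose, 5 fell and 6 did not pass (median -0.04). This was a share called of 62.5%, beside 42.9% over all genes. With library totals as scaling 5 rose and 3 fell. Cplx2, a complexin, rose from 78.1 ± 8.90 to 234 ± 16.0 CPM (1.58, edgeR adjusted p = 6.85e-10). Syt2 (2.21), a calcium sensor that acts in mucin release in mouse airway and also at synapses, rose from 0.846 ± 0.11 to 3.97 ± 1.15 CPM. No Control library passed 0.964 CPM for Syt2, so it met the 1.36 CPM filter only through the knockout libraries. Sytl2 rose by 0.58. The part of neuroendocrine cells in these values was not tested. The small GTPases of secretory granules Rab27a (-0.81), Rab27b (-0.80) and Rab3d (-0.47) and the granule SNARE Vamp8 (-0.29) fell, with edgeR adjusted p from 0.00012 to 0.019, and the call of Vamp8 ended with library totals as scaling (-0.18). Unc13b (-0.05) and Stx3 (0.07) did not pass.

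In the folding list 14 of 16 genes were tested, and 4 rose, 2 fell and 8 did not pass, a share called of 42.9%, the same as over all genes. With library totals as scaling 6 rose and 0 fell. Qsox1, which forms disulfide bonds, rose from 69.5 ± 6.47 to 162 ± 11.8 CPM (1.22, SE 0.07, edgeR adjusted p = 3.89e-09). Pdia5, a disulfide isomerase, rose from 2.2 ± 0.37 to 6.39 ± 1.39 CPM (1.53, edgeR adjusted p = 9.99e-06), and Tmed3, a cargo receptor, by 0.36. The chaperone Hsp90b1 (0.18) rose, and the isomerases Pdia4 and Pdia6 (both -0.17) fell, with edgeR adjusted p from 0.031 to 0.036. Leaving out 1 library ended the call of Hsp90b1 in 5 of 11 cases, of Pdia4 in 7 and of Pdia6 in 5. With library totals as scaling Pdia4 (-0.07) and Pdia6 (-0.06) did not pass. The most abundant chaperones, Hspa5 (-0.10) and P4hb (-0.0044), did not pass. Ern2, the stress sensor of mucous cells, had too few counts to test, 24 over all Controls and 94 over all knockouts.

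Of 23 products listed for goblet and mucous cells 22 had a row and 7 were tested, of which 6 rose and 1 fell (median 2.36). Thus 100% of those tested were called, beside 42.9% over all genes. The filter keeps a scarce gene only where enough libraries have counts, so this count favours genes high in 1 group. Tff3, the trefoil peptide secreted with mucins, had 1 count over all Controls and 123 over all knockouts, with 2.2 to 4.19 CPM in the knockout libraries (edgeR adjusted p = 1.02e-07). Bpifa1, an airway defence protein, had 11 and 427 counts, with 6.05 to 17.03 CPM in the knockout (edgeR adjusted p = 2.65e-06). Capn8, a calpain of gastric mucous cells, rose from 0.770 ± 0.23 to 3.87 ± 0.99 CPM (2.30) and Clca3a1 from 0.383 ± 0.21 to 2.39 ± 0.61 CPM (2.54). Pigr, which carries immunoglobulin A across epithelia, rose by a log2 fold change of 1.94, and lactoferrin (Ltf) by 2.36. Tgm2, a cross-linking enzyme, fell from 158 ± 22.6 to 90.3 ± 12.7 CPM (-0.81, edgeR adjusted p = 2.22e-05). Without the filter 21 were tested, 10 rose and 2 fell.

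Markers of other mucus-making or neighbouring cells were read in the same libraries. Beside the counts that follow, 42.9% of all genes were called, 21.1% higher and 21.8% lower. Of 12 gastric markers, of pit and of gland cells, 6 stayed under 1 CPM throughout, among them Gkn1 at 0 in every library. The sum of the 12 was 13.5 to 17.3 CPM in Control and 8.51 to 12.3 CPM in the knockout. Most of the Control sum was Pgc, which fell from 11.2 ± 1.28 to 3.87 ± 1.16 CPM (-1.54), so the lower sum follows that gene. Gkn2, the other of the 2 tested, rose from 0.232 ± 0.24 to 2.65 ± 0.95 CPM (3.47). Club cell markers split, with 2 rising and 3 falling of 10, among them Scgb1a1, which fell from 47.6 ± 29.5 to 18.6 ± 3.69 CPM (-1.34, edgeR adjusted p = 0.012), while Scgb3a2 (-0.17) did not pass. Mesothelial markers rose in 7 of 8 cases, summed 1139 to 1618 CPM in Control and 1656 to 1942 CPM in the knockout. Most of that sum was the keratin Krt19, which did not pass (1132 ± 145 and 1276 ± 63.5 CPM, 0.17). Msln, the next most abundant, rose from 208 ± 55.1 to 430 ± 59.0 CPM. Basal cell markers rose in 3 of 6 cases, summed 130 to 252 and 324 to 558 CPM. Ciliated cell markers gave 2 higher and 1 lower of 12. Mesenchymal, endothelial and immune markers rose in 7 of 11, 5 of 7 and 3 of 6 cases, with 1 endothelial marker falling. Proliferation markers gave 1 lower of 10. Summed levels of club, ciliated, mesenchymal, endothelial, immune and proliferation markers overlapped between the groups. The part of these cell types in the mucin values was not tested.

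The genes next to the members on the chromosomes were read as well. Of 36 tested neighbours, from the 3 nearest protein-coding genes on each side, 11 rose and 2 fell, 36.1% beside 42.9% over all genes (median 0.02). Brsk2, a kinase gene beyond Muc5b, rose from 0.758 ± 0.23 to 3.22 ± 0.29 CPM (2.08, edgeR adjusted p = 1.92e-06). With 1.21 CPM in its highest Control library, Brsk2 met the 1.36 CPM filter only through the knockout libraries. Ahr, the aryl hydrocarbon receptor, 457869 bases from Agr2, rose by 0.66, and Bzw2, 87748 bases from Agr2, by 0.60. Zfp780b, 92065 bases from Fcgbp, rose by 0.47. Myo1e, 169262 bases from Gcnt3, fell by 0.61 on the log2 scale, and Mob2 fell by 0.23. The call of Mob2 ended in 8 of 11 cases when 1 library was left out, and with library totals as scaling (-0.12). Tollip and Ap2a2, at the outer sides of the chromosome 7 mucin cluster, were not called.

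**Figure D5:**
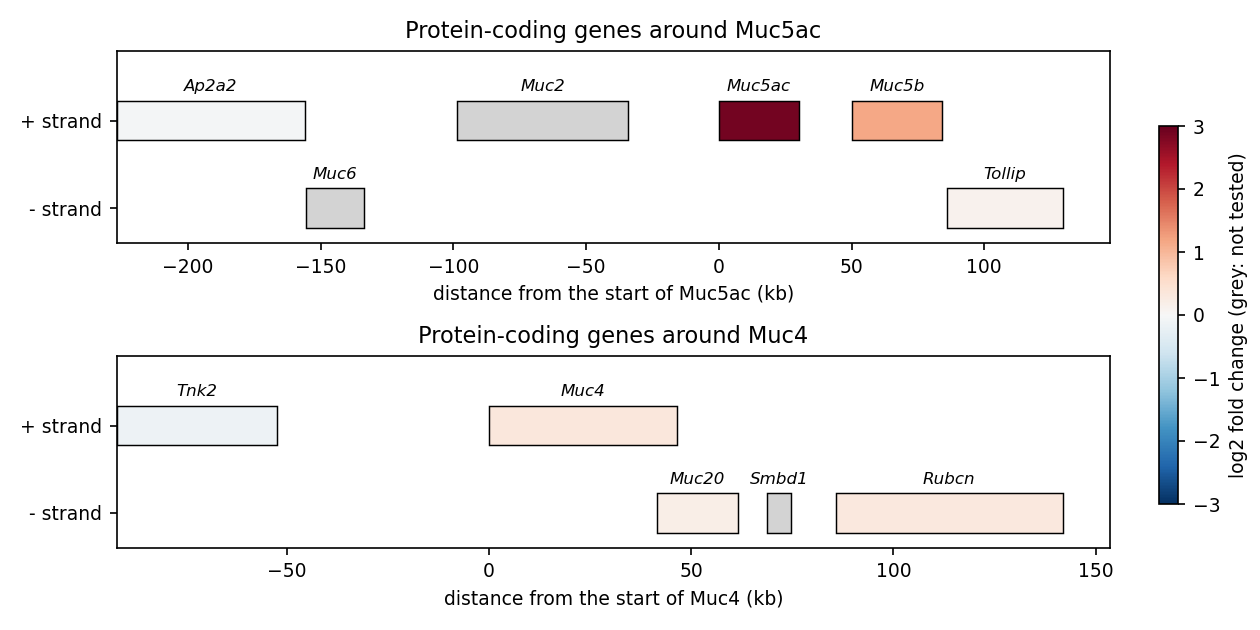
Protein-coding genes around Muc5ac (upper) and Muc4 (lower) by distance from the start of that gene in kilobases and by strand, coloured by log2 fold change of knockout over Control, grey where counts were too low to test; colours saturate at 3. Muc5ac (2.90) and Muc5b (1.17) lie between Muc2 and Tollip, and the ends of Muc4 (0.35) and Muc20 (0.19) overlap.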

How the data were processed

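The authors deposited 1 table of whole-number read counts, with a row for each gene symbol, for 6 Control and 5 PRDM3/16KO libraries. Per the submitters' processing notes the build was mm10 and the tools included HTSeq 2.0, Bowtie2 2.4.2 and Trim Galore 0.4.2, as well as DESeq2, FastQC, Picard 2.18.22 and SAMtools 1.10.0, with no role stated. Which annotation and strand setting were used, and how duplicate or multiply matching reads were treated, is not given in the sources used here. Symbols of 27 rows had become dates and 2 symbols were repeated, and all rows counted toward totals. A depth of 6065906 to 7869787 counts limits genes with few counts, and intervals cover counting error only.

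Low genes were removed with filterByExpr, libraries scaled by TMM, and groups compared with edgeR 4.0.16 in R 4.3.3 (quasi-likelihood F-test, robust, two-sided, Benjamini-Hochberg over 13916 genes, threshold 0.05). The code was tested on simulated data. CPM uses the TMM-scaled library size, and levels between genes the length of merged exons in GENCODE M21. Alternatives were DESeq2 1.42.0, limma 3.58.1 (voom), other scalings, filters and thresholds, a replicate block, libraries left out and libraries split by Y-linked transcripts (mean log2 CPM above or below 3).

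The members and gene lists were chosen with earlier results of these data known. From each list the text names up to 4 called genes per direction, by p, and up to 2 abundant genes not called, and from neighbours up to 4 called in each direction. Named after their values were seen were Foxa3, Gfi1, Gcnt1, Galnt18, St6galnac3, C1galt1, C1galt1c1, Pigr, Ltf, 9530053A07Rik, Tollip, Ap2a2, Gkn2, Pgc and the genes given as untested counts, as were the motifs. Promoter sequences are from RefSeq (GRCm38.p6). Protein sequences were not used here. A gene of the granule release list that the naming rule picks is not reported here.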

Additional observations from a re-analysis of the deposited data

Results flagged for a closer look

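Muc4 in Control 4 stood apart from the other Control libraries, at 21.5 CPM where the next lowest Control had 44.1 CPM. On the log2 scale of CPM plus 1 its gap to the nearest library was 0.692 of the range of the group, above Dixon's critical value of 0.625 for 6 libraries. Of 18 groups (9 genes in each genotype) this was the 1 that passed, and chance flags about 1 in 20 groups. In the same library Muc20, whose 3′ end overlaps that of Muc4, was highest among the Controls at 23.4 CPM, and Scgb1a1 was highest at 103 CPM. Without Control 4 the log2 fold change of Muc4 was 0.20 in place of 0.35.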

How the results depend on the processing

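Over 22 alternatives the log2 fold change ran from 5.84 to 6.10 for Fcgbp, 2.73 to 3.09 for Muc5ac, 5.37 to 6.13 for Gcnt3, -1.33 to -1.14 for Muc1 and 1.09 to 1.75 for Spdef, with the lowest Spdef value in the high-Y libraries. It ran from -0.90 to 2.25 for Agr2, -0.48 to 2.31 for Muc5b, -0.020 to 0.46 for Muc4 and -0.47 to 1.25 for Muc20, signs that changed. Over all genes, leaving out 1 library gave 5375 to 6389 calls, low-Y libraries 3753 and high-Y libraries 1802. Without the filter 5 other mucins and 12 goblet products were called. High-Y libraries, with 1 knockout library assumed to vary like the others, gave 5 O-glycan initiation, 11 O-glycan extension, 2 folding, 5 granule and 2 neighbour genes, and low-Y libraries 6 granule genes. An adjusted p of 0.01 left 3 folding genes, and leaving out 1 library 3 to 6, with 3 without Control 5 or knockout 2. Apart from those without the filter, these fits hold fewer samples, or a stricter limit, by construction. Fewer samples did not always give fewer calls: without Control 6 there were 6389, beside 5973 in the main fit.

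Among the genes named, signs changed for the 4 members above whose groups overlap and for genes that were not called, and the cause was not tested. High-Y libraries gave Muc5b -0.48, Muc4 -0.020, Muc20 -0.47, Agr2 -0.90, Ovgp1 -0.11 and Cd164 -0.055, and low-Y libraries Galnt1 -0.10 and P4hb 0.052. Leaving out Controls 5 and 6 gave Galnt11 -0.0040 and Stx3 -0.031. Library size scaling gave P4hb 0.10, Hspa5 0.012 and Unc13b 0.059, and no filter P4hb 0.0069. Leaving out 1 library gave Muc20 -0.044 to 0.49 (negative without Control 6), Ovgp1 -0.038 to 0.30, Galnt1 -0.036 to 0.040 and P4hb -0.028 to 0.027. Ranges for the lists were 2 to 3 other mucins, 9 to 10 initiation, 17 to 20 extension, 14 to 17 regulator, 8 to 11 granule, 7 product and 11 to 15 neighbour genes.

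Each gene's group mean was subtracted from its log2 CPM, to leave the deviations of each library. Over genes, the deviations of same-numbered Control and knockout libraries had correlations of -0.06, 0.10, -0.05, 0.0079 and 0.27. The same correlations were not computed for differently numbered libraries, so whether the replicate numbers pair the libraries was not tested. With the replicate block 6170 genes were called, in place of 5973. With the longest transcript as length, the knockout order of Agr2 and Gcnt3 changed places. Depth limits Gcnt3, Agr2 and the untested mucins most.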
